A study of Rattus norvegicus with 20 samples.

Results

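Kainate receptors are glutamate-gated cation channels built from the subunits GluK1 to GluK5, encoded by Grik1 to Grik5, and the delta receptor GluD1, encoded by Grid1, belongs to the same superfamily. The 6 genes were taken as a family. Each was read from the probe set (a group of short probes giving 1 signal) that the platform annotation ties to that gene alone. There was 1 such probe set per gene, among 14217 genes named alone by a probe set. Of the 6, 4 passed a filter on low signal and were tested (Grik1, Grik2, Grik4 and Grik5), and 2 lay below it (Grik3 and Grid1).

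GluK1, GluK2 and GluK3 can form channels by themselves, whereas the high-affinity subunits GluK4 and GluK5 need a partner from that first class. Kainate receptors act on both sides of the synapse, where they tune transmitter release and carry slow excitatory currents, and in the cerebellum granule cells are known for GluK2 and GluK5. GluD1 is not opened by glutamate in the usual way, and it organises synapses by binding cerebellins, which in turn bind presynaptic neurexins.

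The 20 animals were Sprague Dawley rats, all male, 20 weeks old and weighing 250 to 300 g. Their tissue is labelled brain cortex, and total RNA was hybridised to 1 Affymetrix array per sample. In the oxygen group, 10 rats breathed oxygen alone for 15 minutes. In the isoflurane group, 10 breathed isoflurane, a volatile anaesthetic, in oxygen at 2% (1.4 MAC, the unit of anaesthetic potency) for the same time, and all brains were taken 6 hours later. The submitters' stated aim was to derive networks from the expression profiles. No allele, transgene or other agent is named for either group.

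The label did not hold for all arrays. Pcp2 is expressed by Purkinje cells, and its log2 signal was above 12 on 11 arrays (13.60 to 14.17) and below it on 9 (4.46 to 10.67). The 11 arrays are called cerebellum-like here and comprise 6 oxygen and 5 isoflurane arrays. The 9 are called cortex-like and comprise 4 oxygen and 5 isoflurane arrays. Besides Pcp2, whose separation the split fixed, a list of 10 cerebellar markers had 8 tested genes, and all 8 were higher on every cerebellum-like array than on every cortex-like one. Of 8 tested genes of a list of 10 cortical markers, 5 were higher on every cortex-like array, and so were 4 of 5 tested striatal markers. Array medians ran from 7.20 to 7.57 in log2 signal, and the number of arrays limits the precision.

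Grik1 and Grik2 had higher mean signals on cerebellum-like arrays, and Grik4 and Grik5 on cortex-like ones. Grik3, which lay below the filter, also had the higher mean on cortex-like arrays (5.04 against 4.49). The sets were made from these arrays' own Pcp2 values, so these differences are described without a test. Of the 4 tested members, 1 was higher on every cerebellum-like array (Grik1) and 1 on every cortex-like array (Grik5), where 9.47% and 9.34% of all tested probe sets did the same (18.8% in either direction).

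Among the subunits that form channels by themselves, Grik1 ran from 7.90 to 8.49 (median 8.27) in log2 signal on the 11 cerebellum-like arrays and from 7.06 to 7.75 (median 7.20) on the 9 cortex-like ones. The means were 8.22 ± 0.21 (SD, n = 11) and 7.27 ± 0.23 (SD, n = 9), a 1.93-fold difference with no overlap. The set difference of Grik1 was 1.06 in oxygen rats and 0.86 in isoflurane rats on the log2 scale. Grik2 ran from 8.98 to 9.86 (median 9.68) on the cerebellum-like arrays and from 8.02 to 9.18 (median 8.61) on the cortex-like arrays, with means of 9.63 ± 0.25 (SD, n = 11) and 8.57 ± 0.44 (SD, n = 9). These sets overlapped, since oxygen replicate 10 was the lowest cerebellum-like array and lay below isoflurane replicates 5 and 6 of the cortex-like set. The set difference of Grik2 was 1.37 among oxygen arrays and 0.86 among isoflurane arrays.

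Of the high-affinity subunits, Grik5 ran from 7.91 to 9.10 (median 8.78) on cerebellum-like arrays and from 9.10 to 9.99 (median 9.69) on cortex-like arrays. The highest cerebellum-like array (oxygen replicate 5) and the lowest cortex-like array (isoflurane replicate 10) nearly met. The means were 8.56 ± 0.49 (SD, n = 11) and 9.68 ± 0.29 (SD, n = 9), a 2.16-fold difference. Grik4 ran from 7.13 to 8.14 (median 7.45) and from 7.64 to 8.29 (median 8.00) on the same sets, a difference of -0.46 between the means (cerebellum-like minus cortex-like). Its sets overlapped, because of oxygen replicate 10 and isoflurane replicate 9 of the cerebellum-like set.

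Grik3 and Grid1 were dim on both sets, with mean signals above only 18.2% and 17.3% of all probe sets. Without detection calls, a signal this low could not be told from background. Grik3 ran from 3.19 to 5.93 on cerebellum-like arrays and from 4.48 to 5.90 on cortex-like arrays. Grid1 ran from 3.03 to 6.61 and from 2.55 to 5.66. Both ranges overlapped between the sets, and the SD of these genes within a set reached 1.31, against at most 0.49 for the 4 tested members.

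**Figure D1:**
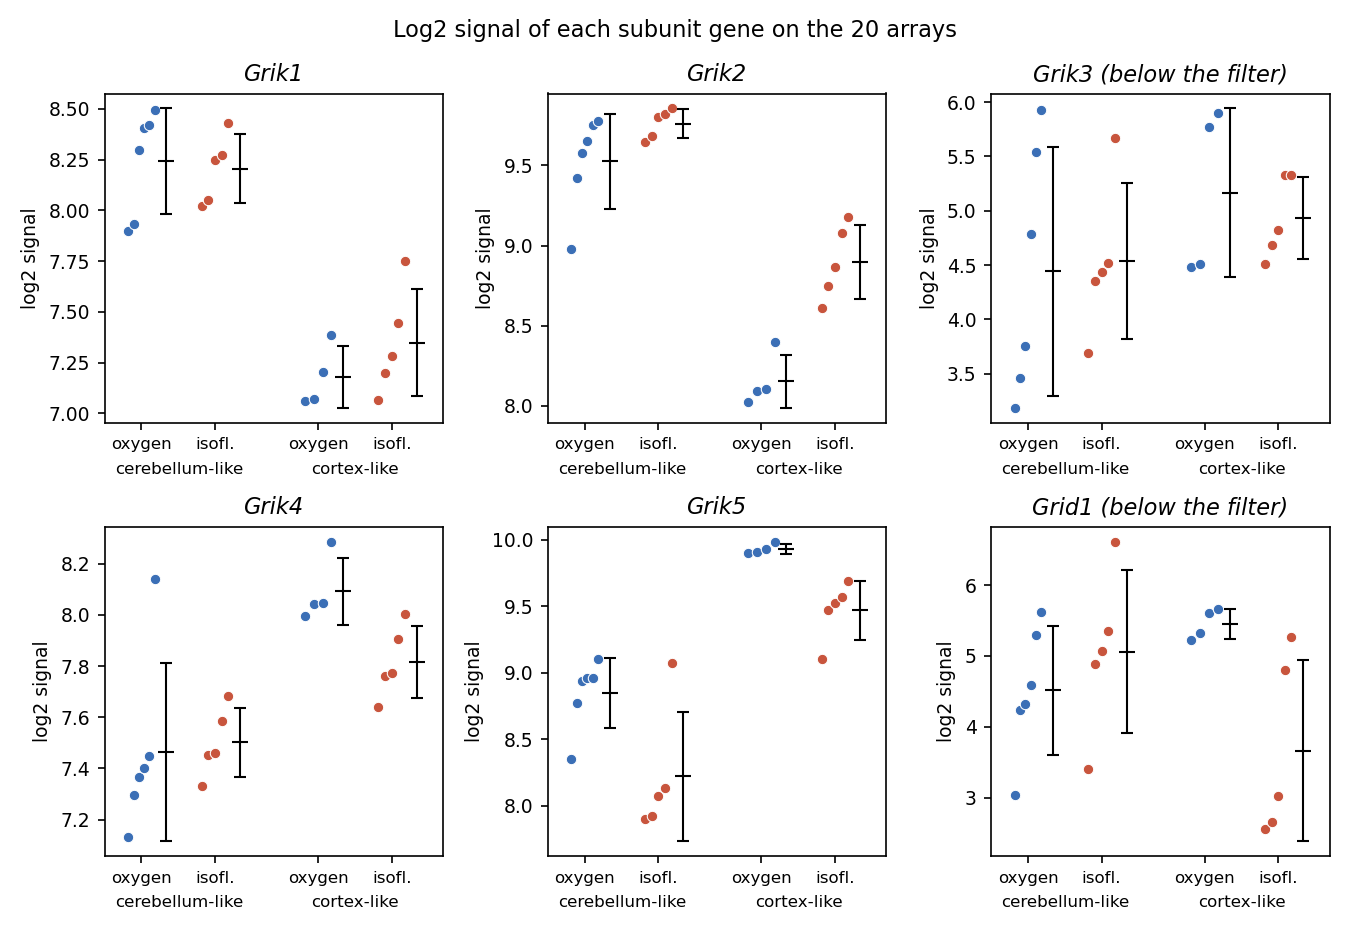
Log2 signal (vertical axes, scaled for each gene) of the 6 subunit genes on every array, split by tissue set and group, with 1 point per array and black bars for the mean and SD of each of the 4 combinations. Grik1 and Grik2 sit higher on cerebellum-like arrays, Grik4 and Grik5 on cortex-like arrays, and Grik3 and Grid1 are dim and scattered.

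The next comparison asked whether the subunits differed 6 hours after isoflurane. With the tissue set as a block in the model, Grik2 rose and Grik5 fell, and neither Grik1 nor Grik4 was called. Grik3 and Grid1 were not tested. In this fit over all 20 arrays, 1 of the 4 tested members was called higher, against 2.58% of all 18625 tested probe sets, and 1 lower, against 4.79%. Calls were made in limma at a Benjamini-Hochberg adjusted p under 0.05 over all tested probe sets, two-sided.

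The stretches before the starts of the gene that rose and of the gene that fell are shown to set them side by side. They are 250 bases from RefSeq on build GRCr8, on the minus strand and read 5′ to 3′, with every CG pair in capitals. The Grik2 stretch lies at chr20:54415284-54415533 and the Grik5 stretch at chr1:89794910-89795159.
Grik2: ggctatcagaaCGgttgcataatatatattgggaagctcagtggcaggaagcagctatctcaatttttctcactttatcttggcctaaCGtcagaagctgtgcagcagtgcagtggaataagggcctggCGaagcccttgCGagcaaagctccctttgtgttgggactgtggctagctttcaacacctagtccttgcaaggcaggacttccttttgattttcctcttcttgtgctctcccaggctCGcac
Grik5: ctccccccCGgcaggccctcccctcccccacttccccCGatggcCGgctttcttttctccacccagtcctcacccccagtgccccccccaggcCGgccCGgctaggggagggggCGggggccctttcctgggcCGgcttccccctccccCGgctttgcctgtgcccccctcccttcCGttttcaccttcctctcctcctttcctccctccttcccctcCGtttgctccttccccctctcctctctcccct

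Of these bases, 49.6% are G or C in Grik2 and 70.8% in Grik5. Grik2 has 5 CG pairs, more than 44.7% of 33469 promoters in the same table, and Grik5 has 10, more than 64.1%. The 6 letters GGGCGG, searched on both strands and holding a CG pair themselves, occur before Grik5 and not before Grik2, and in 30.5% of all promoters. The letters TATAAA, also searched on both strands, occur in neither, and in 12.9% of all. These matches describe letters in the stretches alone. Entries for Grik1, Grik3 and Grik4 were also matched, with 57.6%, 81.6% and 43.2% G or C, and Grid1 had no entry. Of these entries, only that of Grik3 holds GGGCGG.

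Grik2, the subunit of many kainate receptors in principal neurons and granule cells, had log2 signals of 8.40, 8.02, 8.10 and 8.09 on the oxygen arrays of the cortex-like set. The isoflurane arrays of that set read 8.87, 8.61, 9.18, 9.08 and 8.75. All 5 lay above all 4 oxygen arrays, as they did for 6.7% of tested probe sets. The means were 8.15 ± 0.17 (SD, n = 4) and 8.90 ± 0.23 (SD, n = 5), a 1.67-fold rise (0.74 ± 0.15 SE on the log2 scale, limma adjusted p = 0.0111). Within this set 11.2% of all tested probe sets were called higher and 7.42% lower.

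On cerebellum-like arrays Grik2 ran from 8.98 to 9.77 (median 9.62) after oxygen, and the 5 isoflurane arrays read 9.86, 9.82, 9.64, 9.80 and 9.68. The groups overlapped (isoflurane lay wholly above in 0.408% of tested probe sets), although each of the 5 exceeded the mean of the oxygen group. The means were 9.53 ± 0.30 (SD, n = 6) and 9.76 ± 0.09 (SD, n = 5), a difference of 0.23 ± 0.13 SE (95% interval -0.05 to 0.52, limma adjusted p = 0.445). Without oxygen replicate 10, the lowest array, it was 0.12 ± 0.09 SE (limma adjusted p = 0.553). Limma called 0 of 18625 probe sets within this set (0.0%), with 2376 at an unadjusted p under 0.05, and array weights gave 1075 calls.

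Over both sets with the block, Grik2 rose by 0.46 ± 0.11 SE, or 1.38-fold (limma adjusted p = 0.0210), with 10 of 10 isoflurane arrays above the oxygen mean of their set. Without oxygen replicate 4 the adjusted p was 0.0502 at a rise of 0.43. The rise was larger on cortex-like arrays by 0.51 ± 0.20 SE (cerebellum-like minus cortex-like -0.51), but this difference did not pass over all probe sets (limma interaction term, adjusted p = 0.105). None of the 4 members passed for this difference, against 10.2% of all tested probe sets (7.61% with a negative and 2.58% with a positive difference). Without oxygen replicate 10, the lowest cerebellum-like array, the same difference was -0.62 and passed (limma adjusted p = 0.0212). Of the 20 fits that left out 1 array, it passed in this 1 only, with limma adjusted p up to 0.186.

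Grik5, the most widely expressed high-affinity subunit, had log2 signals of 9.93, 9.99, 9.91 and 9.91 on the oxygen arrays of the cortex-like set. The isoflurane arrays read 9.48, 9.57, 9.52, 9.69 and 9.10. All 5 lay below all 4 oxygen arrays, as they did for 6.52% of tested probe sets. The means were 9.93 ± 0.04 (SD, n = 4) and 9.47 ± 0.22 (SD, n = 5), a 1.38-fold fall (-0.46 ± 0.12 SE, limma adjusted p = 0.0254). This call was near the threshold: it was lost without any 1 of oxygen replicates 2, 3 and 4 or isoflurane replicates 2, 4 and 5, with limma adjusted p from 0.0504 to 0.0647 and values from -0.48 to -0.44. It was also lost when 1 fit of 4 means over all 20 arrays supplied the spread (limma adjusted p = 0.0886).

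On cerebellum-like arrays Grik5 ran from 8.36 to 9.10 (median 8.95) after oxygen, and the isoflurane arrays read 8.07, 7.91, 8.13, 7.92 and 9.08. Replicates 1, 3, 7 and 8 lay below every oxygen array, and isoflurane replicate 9 lay among the highest, so the groups overlapped, where isoflurane lay wholly below in 0.58% of tested probe sets. The means were 8.85 ± 0.26 (SD, n = 6) and 8.22 ± 0.49 (SD, n = 5), a difference of -0.63 ± 0.21 SE (95% interval -1.07 to -0.19, limma adjusted p = 0.331). Without isoflurane replicate 9 it was -0.84 ± 0.14 SE and passed (limma adjusted p = 0.00912), in a fit that called 1086 probe sets.

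Over both sets with the block, Grik5 fell by 0.55 on the log2 scale (-0.55 ± 0.13 SE, 1.47-fold, limma adjusted p = 0.0187). Of the 10 isoflurane arrays, 9 were under the mean of their set's oxygen arrays. The call held in all 20 fits that left out 1 array, with limma adjusted p up to 0.0386. The change was -0.17 ± 0.26 SE apart between the sets (95% interval -0.71 to 0.38, limma interaction term, adjusted p = 0.721).

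**Figure D2:**
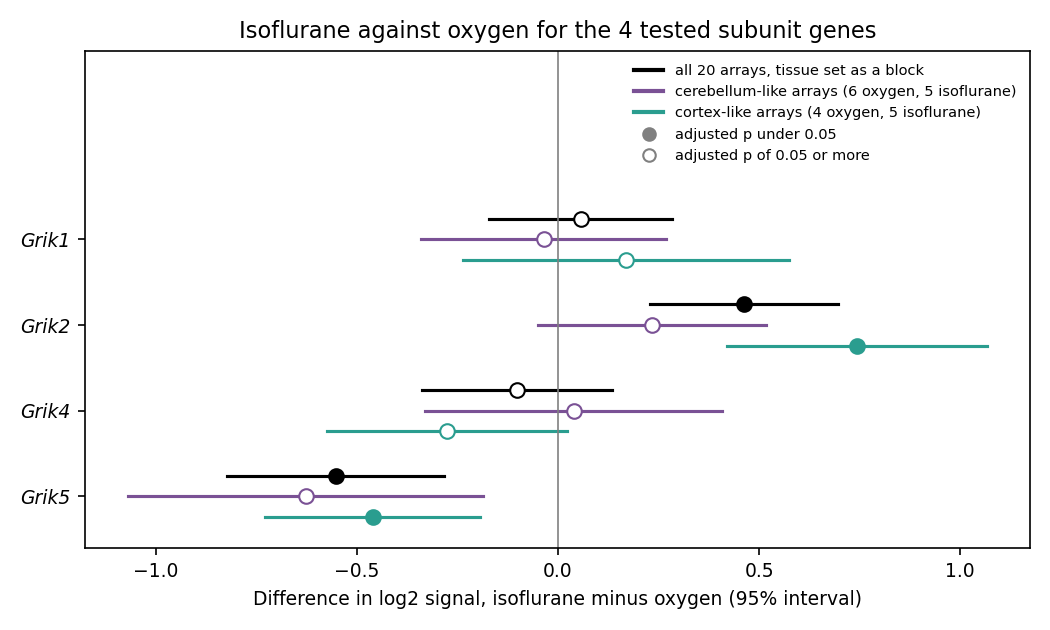
Difference in log2 signal between isoflurane and oxygen (horizontal axis) for the 4 tested subunit genes, with 95% intervals, for all 20 arrays with the set as a block, and for each set alone. Filled points passed at an adjusted p under 0.05: Grik2 at 0.46 and 0.74, and Grik5 at -0.55 and -0.46.

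Both calls needed the tissue set in the model. Without it the values were 0.35 ± 0.27 SE for Grik2 and -0.44 ± 0.29 SE for Grik5 (limma adjusted p = 0.580 and 0.501). Neither call held without isoflurane replicates 2, 4, 5 and 6, which stand apart from the other cortex-like arrays. Leaving out these 4 leaves 1 isoflurane array in that set, so the lost calls do not show that both changes rested on them. Grik2 was then at 0.32 ± 0.12 SE, against 0.46 with all arrays. Grik5 was at -0.67 ± 0.16 SE, against -0.55. The cortex-like isoflurane array left in that fit, replicate 10, had the lowest Grik5 signal of its set (9.10).

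The unequal change of Grik2 and Grik5 was also read within each array, where array scaling cancels. This pair was chosen for its opposite changes, so the values restate both results and add no support. On cortex-like arrays Grik2 minus Grik5 lay between -1.96 and -1.54 on the log2 scale after oxygen and between -0.96 and -0.35 after isoflurane, a change of 1.20. On cerebellum-like arrays it lay between 0.02 and 1.30 after oxygen and between 0.60 and 1.92 after isoflurane, a change of 0.86. These are changes of the difference between the same 2 probe sets, and the sign of the difference does not compare the genes' amounts.

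**Figure D3:**
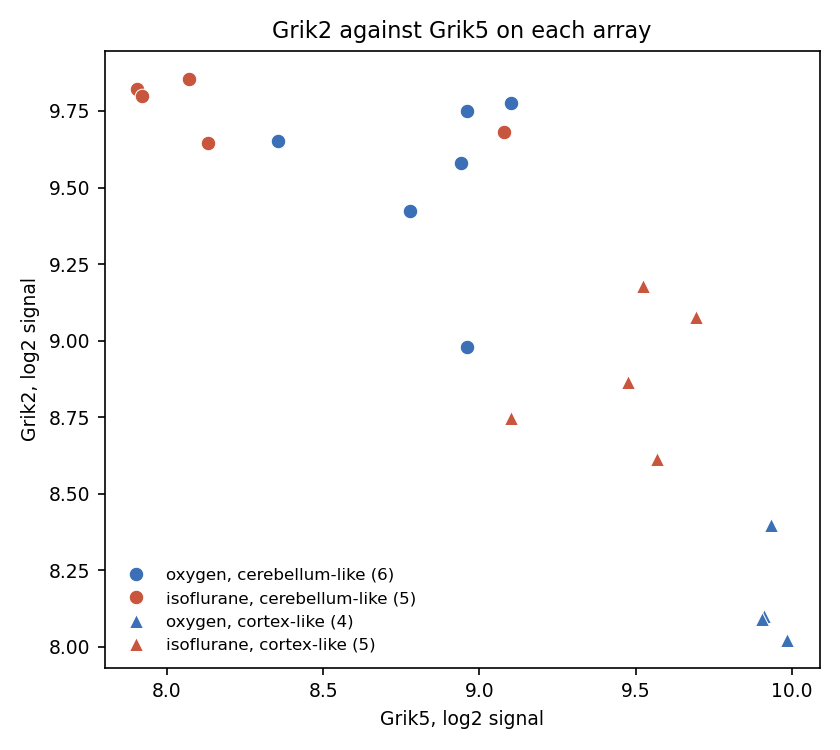
Log2 signal of Grik2 (vertical axis) against Grik5 (horizontal axis), 1 point per array, by group (colour) and tissue set (circles and triangles). Cortex-like oxygen arrays lie at the lower right, and cortex-like isoflurane arrays lie above and to the left of them, with Grik2 from 8.61 to 9.18 and Grik5 from 9.10 to 9.69.

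Grik1 and Grik4 were not called with the block, within either set or for the difference between the sets. Grik1, the subunit known from interneurons and sensory neurons, differed by 0.06 ± 0.11 SE with the block (95% interval -0.17 to 0.28, limma adjusted p = 0.774). It stood at -0.04 within cerebellum-like arrays and 0.17 within cortex-like arrays (limma adjusted p = 0.916 and 0.541), and the block and cortex-like values changed sign with quantile normalization (-0.02 and -0.05). Grik4 differed by -0.10 ± 0.11 SE with the block (95% interval -0.34 to 0.13, limma adjusted p = 0.592). On cortex-like arrays Grik4 read 8.04, 8.29, 8.00 and 8.05 after oxygen and 7.91, 7.64, 7.77, 8.00 and 7.76 after isoflurane. All 5 isoflurane arrays lay below the oxygen mean and 1 overlapped the oxygen range, with a difference of -0.28 ± 0.14 SE (limma adjusted p = 0.172). With arrays centred on their medians the Grik4 value in that set was -0.49 and passed (limma adjusted p = 0.0340).

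For the dim members the differences are given from a fit without the signal filter. Grik3 differed by -0.05 ± 0.36 SE with the block (limma adjusted p = 0.954). Grid1 stood at 0.55 ± 0.56 SE within cerebellum-like arrays and at -1.79 ± 0.62 SE within cortex-like arrays (limma adjusted p = 0.751 and 0.0807). On cortex-like arrays Grid1 read 5.22, 5.61, 5.66 and 5.32 after oxygen and 2.65, 3.03, 2.55, 5.27 and 4.80 after isoflurane. The 3 lowest arrays were isoflurane replicates 2, 4 and 5, while replicate 6 lay inside the oxygen range. The size of that difference depended on how low signals were treated, being -0.43 with a pseudocount of 64.

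Several array measures moved with the groups on cortex-like arrays, where Grik2 and Grik5 were called. The array median ran from 7.20 to 7.46 in log2 signal after oxygen (middle value 7.22). After isoflurane the array median ran from 7.42 to 7.57 (middle value 7.47). With arrays centred on their medians, 3 members were called within the cortex-like set, 1 higher and 2 lower. The log2 ratio of 3' to 5' signal of the Gapdh and beta-actin control probe sets, a sign of RNA quality, ran from 0.76 to 1.23 after oxygen. After isoflurane it was 1.28 to 1.59 on replicates 2, 4, 5 and 6 and 0.75 on replicate 10. With this ratio as a covariate Grik2 stood at 0.69 ± 0.17 SE and Grik5 at -0.61 ± 0.11 SE within the set, and both passed (limma adjusted p = 0.0447 and 0.0273). Within cerebellum-like arrays the same covariate moved Grik5 from -0.63 to -0.40 ± 0.16 SE (limma adjusted p = 0.653). The ratio ran there from 0.71 to 0.96 after oxygen. On isoflurane replicates 1, 3, 7 and 8 it was 0.63 to 0.75. Replicate 9, with the highest Grik5 of those isoflurane arrays, stood at 0.99. On cortex-like arrays Pcp2 ran from 7.63 to 8.78 after oxygen and from 4.46 to 10.67 after isoflurane. Isoflurane replicates 2, 4, 5 and 6 (4.46 to 5.93) lay below every oxygen array, and replicate 10 above every one. A list's summed log2 level is the log2 of its genes' summed linear signals, genes below the filter included, so bright genes weigh most. For the 10 cerebellar markers it ran from 11.83 to 12.45 after oxygen (median 12.23). After isoflurane this level ran from 11.33 to 13.29 (median 11.39), and none of the 9 tested markers was called. Without isoflurane replicate 10, which had the most Pcp2 of the 9, Grik2 was at 0.78 and Grik5 at -0.37 (limma adjusted p = 0.00279 and 0.0100). That array had the lowest Grik5 signal of the 9 (9.10), and cerebellum-like arrays had the lower mean Grik5. The part of the array median, of RNA quality and of cerebellar signal in these results was not tested.

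**Figure D4:**
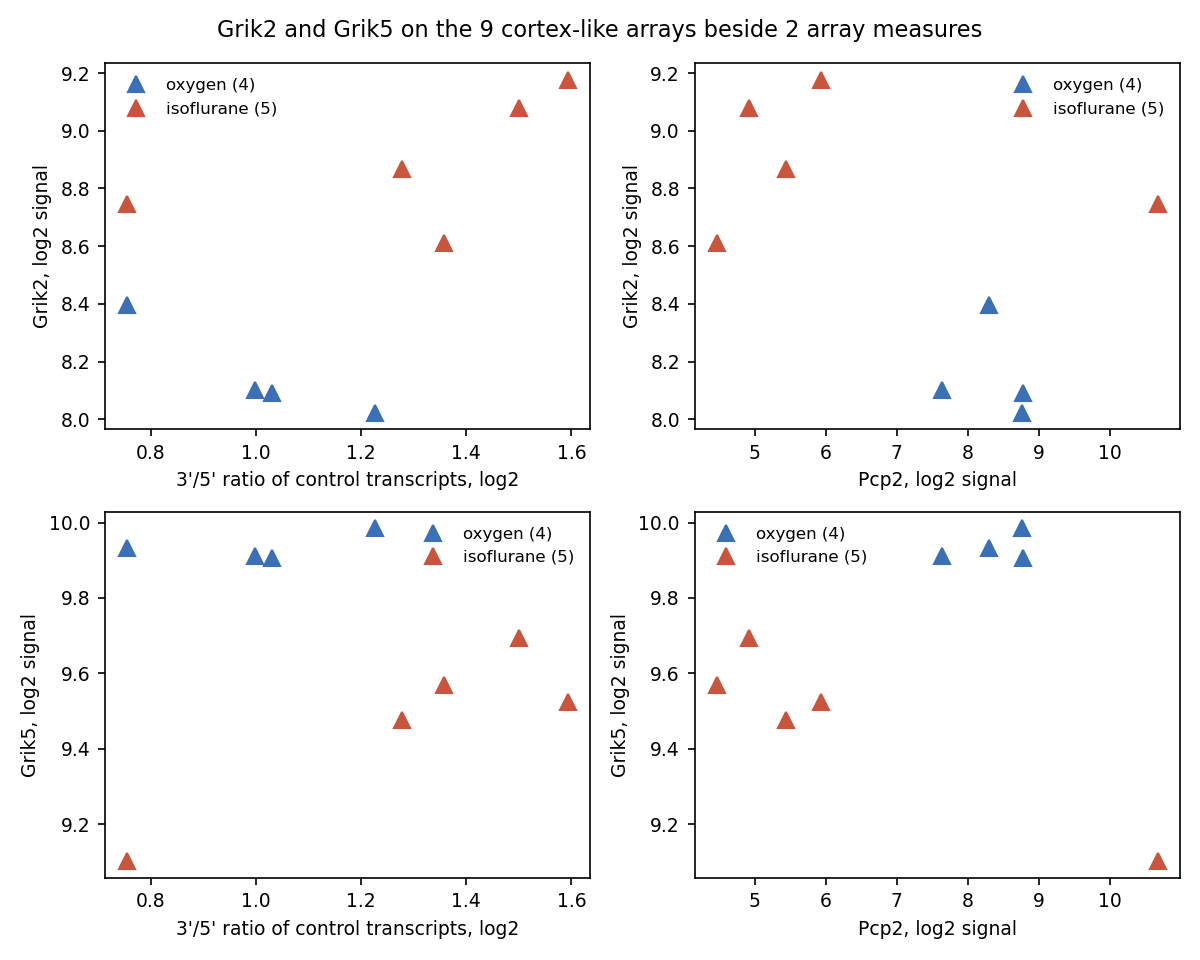
Log2 signal of Grik2 (top) and Grik5 (bottom) on the 9 cortex-like arrays against the log2 3'/5' ratio of control transcripts (left) and the log2 signal of Pcp2 (right), with 1 triangle per array. Isoflurane replicate 10, at a ratio of 0.75 and a Pcp2 signal of 10.67, stands apart from the other 4 isoflurane arrays on both measures and has the lowest Grik5 signal of the 9, at 9.10.

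Markers of several cell types and regions also changed on cortex-like arrays, where 11.2% of all tested probe sets were called higher and 7.42% lower. In bulk tissue fewer cells of a type and less RNA per cell cannot be told apart. Of 6 interneuron markers, Gad1 (0.35) and Gad2 (1.10), the enzymes of GABA synthesis, were called higher and the neuropeptide gene Sst (-0.53) lower, with limma adjusted p from 0.00827 to 0.0286. Their summed log2 level ran from 13.93 to 13.98 after oxygen and from 13.95 to 14.11 after isoflurane. Of 8 tested cortical markers 1 was called higher (Rorb, 1.67) and 2 lower (Slc17a7, -0.93, and Neurod6, -0.77), and of 5 astrocyte markers 2 were lower (Gfap, -0.78, and Aldh1l1, -0.51). The summed level of the cortical list ran from 13.38 to 13.82 and from 13.07 to 13.37, and that of the astrocyte list from 15.08 to 15.51 and from 15.10 to 15.39. A single gene was called lower in each of 5 further lists, of 2 tested choroid plexus markers (Ttr, -2.97), 2 hippocampal markers (Wfs1, -1.24), 5 oligodendrocyte markers (Sox10, -0.91), 5 microglial markers (Csf1r, -0.56) and 4 endothelial markers (Slco1c1, -0.41). Their limma adjusted p ran from 0.00709 to 0.0221. The uncalled genes of these lists went both ways. Prox1 (0.52), Mbp (0.24), Mog (0.37), Mobp (0.30), C1qb (0.14), Aif1 (0.15), Cldn5 (0.24) and Flt1 (0.23) had higher means after isoflurane. Folr1 (-0.30), Mag (-0.29), C1qa (-0.05), Cx3cr1 (-0.27) and Pecam1 (-0.14) had lower ones. The summed choroid plexus level ran from 9.71 to 13.70 after oxygen and from 8.93 to 9.91 after isoflurane, and the hippocampal one from 10.06 to 10.20 and from 9.45 to 10.01. For oligodendrocytes the summed level ran from 15.01 to 15.56 and from 15.39 to 15.76, for microglia from 11.81 to 12.37 and from 11.69 to 12.31, and for endothelium from 11.78 to 11.96 and from 11.57 to 12.23. The part of these shifts in the Grik2 and Grik5 results was not tested.

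Genes with the most similar pattern were ranked by their Pearson r with a member, after centring on the group mean within a set. The lower of the cerebellum-like and cortex-like r values set the rank. For Grik2 they were Rad50, a DNA repair gene, with r = 0.91 over 11 cerebellum-like and 0.79 over 9 cortex-like arrays, and Zfp91 (0.77 and 0.79). For Grik5 they were Snph, the gene of the axonal mitochondrial anchor syntaphilin (0.89 and 0.88), and Plcg1, a phospholipase gene (0.88 and 0.93). For Grik4 they were Sh2d5 (0.87 and 0.89) and Prox1 (0.81 and 0.79), and for Grik1 Pgm2l1 (0.80 and 0.77) and Tab3 (0.74 and 0.73). These genes were the top of that ranking among all tested probe sets naming a single gene. The arrays are few and also share array quality, so the correlations are a description only.

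None of 9 tested genes of a list of 12 kainate receptor partners was called with the block, against 7.37% of all tested probe sets, and the list median was -0.05 where that of all probe sets was 0.00. Neto2, an auxiliary subunit that slows kainate receptor gating, stood at 0.01 ± 0.14 SE and Adarb1, an enzyme that edits kainate and AMPA subunit RNA, at -0.01 ± 0.09 SE. The lowest p in the list was that of Dlg4, the scaffold PSD-95, at -0.29 ± 0.09 SE (limma adjusted p = 0.0569). Within cortex-like arrays 2 of the 9 were called, against 18.6% of all: Dlg4 at -0.60 and Kctd12, a GABA-B receptor auxiliary subunit, at -0.52 (limma adjusted p = 0.00859 and 0.0238).

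Of 7 tested genes on a list of 13 delta receptor partners, 1 was called with the block, against 7.37% of all, and the median was -0.34. It was C1ql1, a ligand of the adhesion receptor Adgrb3, at -0.48 ± 0.14 SE (limma adjusted p = 0.0367). Cbln1, the cerebellin of parallel fibres, was above every cortex-like array on the cerebellum-like arrays (13.09 to 13.38 against 5.98 to 9.98), and Cbln2 ran the other way (1.89 to 6.74 against 9.39 to 9.88). Neither passed after isoflurane (limma adjusted p = 0.352 and 0.300). Within cortex-like arrays C1ql1 (-0.81) was called lower and Nrxn3, a neurexin gene, higher (1.23, limma adjusted p = 0.0218 and 0.0115).

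Of 9 tested AMPA and NMDA receptor subunit genes, 2 were called lower with the block and none higher, against 4.79% and 2.58% of all, with a list median of 0.09. They were Grin1, the obligatory NMDA subunit, at -0.52 ± 0.10 SE, and Grin2c, an NMDA subunit of mature granule cells, at -0.47 ± 0.12 SE (limma adjusted p = 0.00873 and 0.0280). Within cortex-like arrays 3 were called higher and 1 lower, against 11.2% and 7.42% of all. The AMPA subunit genes Gria2 (0.71) and Gria3 (0.80) and the NMDA subunit gene Grin2b (1.19) rose there, and Grin1 fell (-0.64), with limma adjusted p from 0.0111 to 0.0259. The values of Grik2 (0.74) and Grik5 (-0.46) in the same fit lay within the range of these subunits.

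**Figure D5:**
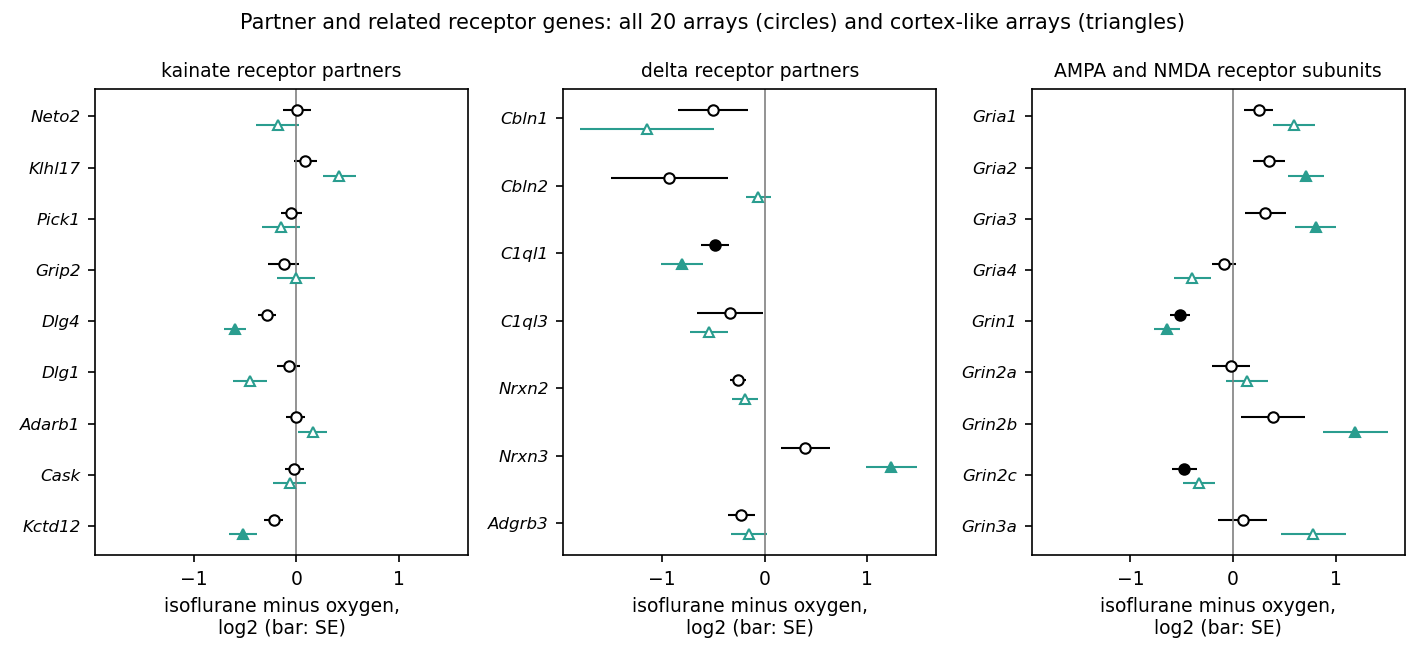
Isoflurane minus oxygen difference in log2 signal (horizontal axes, bars are SE) for the tested genes of 3 lists, over all 20 arrays with the tissue set as a block (circles) and within the 9 cortex-like arrays (triangles). Filled symbols passed at an adjusted p under 0.05, such as Grin1 at -0.52 and -0.64 and C1ql1 at -0.48 and -0.81.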

How the data were processed

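The authors deposited 1 intensity per probe set and array on a linear scale. The submitters' processing notes name MAS5 and Affymetrix Expression Console, and versions and settings are not given in the sources used here. Each array had been scaled, as its mean after trimming 2% from each end was 500.1 to 500.2, so changes are relative to an array's average transcript. Groups and replicate numbers came from sample titles. Intensities were converted to log2 after 2015 values below 1 were set to 1. Controls aside there were 31042 probe sets, and the 18625 whose mean exceeded the 40th percentile (6.62) were tested. Symbols of 20826 probe sets naming 1 gene were updated by gene ID through an annotation of GRCr8, used for names and promoter sequences.

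Linear models were fitted with limma 3.58.1 under R 4.3.3, with a mean-dependent prior in eBayes. Tests were two-sided, with Benjamini-Hochberg adjustment over all tested probe sets and a threshold of 0.05. The comparisons were isoflurane minus oxygen with the tissue set as a block, within each set, and the interaction. The fits were checked on artificial values with known shifts. Of shifts of 0.5 on the log2 scale, 66% were called with the block and 26% within cerebellum-like arrays. Within cortex-like arrays 14% were called, and for the interaction 12%, so most artificial shifts of this size were missed there. Those 2 artificial fits called 143 and 134 probe sets, against 3469 and 1897 in the data. The adjusted p depends on how many probe sets change, so these shares do not give the share missed in the data. Python 3.11.15 with numpy 2.4.6, pandas 2.3.3 and matplotlib 3.10.9 served for description and plots. Each p-value weighs a difference against the spread between arrays of different rats, which also takes in differences in cerebellar signal and RNA quality.

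The members, the tissue split, the lists, the tests and the alternatives were chosen with earlier results of these data known. Named genes were the members, list genes past the threshold in the block fit or else the lowest p of a list, and the 2 most similar genes per tested member; other list genes were named after their values were seen. A gene with several probe sets was represented by its brightest tested one. Alternatives were 2 scalings, pseudocounts of 16 and 64, other eBayes settings, array weights, the 3'/5' ratio as a covariate, other filters, arrays left out, the replicate number as a block, no tissue term, and a shared spread.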

Additional observations from a re-analysis of the deposited data

Results flagged for a closer look

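Each member was examined for arrays far from the rest in the 4 combinations of group and tissue set (4 to 6 arrays each), which made 24 groups of values. About 1 in 20 such groups has a value apart by chance, and 2 had one. Oxygen replicate 10 of the cerebellum-like set had a Grik4 signal of 8.14 (log2), above the other 5 oxygen arrays at 7.13 to 7.45, and without it the Grik4 difference in that set was 0.17 in place of 0.04. Isoflurane replicate 9 of the same set had a Grik5 signal of 9.08, above the other 4 isoflurane arrays at 7.91 to 8.13.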

How the results depend on the processing

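Grik2 kept its rise and Grik5 its fall in sign under every alternative run, with the block and within each set. With the block both passed under 10 of 13 alternatives other than single arrays left out. The 3 that ended both calls and the count of called members (0 each) were no tissue term, isoflurane replicates 2, 4, 5 and 6 left out, and the replicate number as a block beside the tissue set, in which Grik2 was at 0.45 and Grik5 at -0.56 (limma adjusted p = 0.0752 and 0.0834). Replicate numbers did not pair the arrays: the correlation of residuals exceeded 0.1 in 2 of 10 pairs (-0.26 to 0.23), and 1 of 20 arrays correlated best with its own number. Over all probe sets these 3 settings called 74, 0 and 29 in place of 1372. Array weights gave 1075 calls within cerebellum-like arrays, with Grik5 as 1 called member (-0.75), 6787 within cortex-like arrays and 5815 for the interaction, with Grik2 as 1 called member (-0.60). Median centring gave 5243 calls within cortex-like arrays (1467 higher and 3776 lower, against 2087 and 1382) and 3899 for the interaction (2840 higher and 1059 lower, against 480 and 1417). It shifted the median of all probe sets by -0.21 in the cortex-like fit, by -0.08 with the block and by 0.24 for the interaction, and quantile normalization shifted it by -0.06 in the cortex-like fit. The 3'/5' covariate gave 1111 and 104 calls, and the filter at the 60th percentile 1037 for the interaction. With 1 fit of 4 means, 1 member was called within cortex-like arrays. Leaving out 1 array at a time gave 480 to 2938 calls with the block (1 to 2 members), 0 to 1086 (0 to 1) within cerebellum-like arrays, 1606 to 6266 (1 to 2) within cortex-like arrays and 1109 to 4303 (0 to 1) for the interaction.

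Signs that turned belonged to values that never passed, and the cause was not tested. Grik1 with the block was -0.0229 after quantile normalization, -0.019 after median centring, -0.023 without the 4 isoflurane arrays, -0.0055 with array weights and -0.0395 with no tissue term. Within cortex-like arrays it was -0.0506 after quantile normalization and -0.0405 after median centring, and its interaction 0.0501 and 0.039. The Grik5 interaction was 0.0773 with median centring and 0.18 with the 3'/5' covariate. Without single arrays the value within cerebellum-like arrays ran from -0.1047 to 0.0146 for Grik1 and from -0.0271 to 0.1742 for Grik4. Signals near background limit Grik3 and Grid1, whose signs also turned. With the block Grid1 was 0.2741 without the 4 isoflurane arrays, against -0.5036. Grik3 was 0.1284 with array weights, against -0.0547.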
